A study of Mus musculus with 4 samples.

Results

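The 10 genes described here encode the filament subunits of the neuronal cytoskeleton (Nefl, Nefm, Nefh and Ina) and microtubule-associated proteins (Mapt, Map2, Map1a, Map1b, Map4 and Map6). They were chosen by gene symbol, as every array probeset whose single symbol in the platform annotation is 1 of the 10. This gave 27 of 45101 probesets, 7 for the filament subunits and 20 for the microtubule-associated proteins. A probeset is a group of short DNA probes on the array that together report 1 transcript or a stretch of it.

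Hippocampal RNA came from male mice of 1 inbred strain, DBA/2J, given as 8 to 10 weeks old, that drank either untreated water (control, 0 mg/kg per day) or water with fluoxetine, a serotonin reuptake inhibitor used as an antidepressant (18 mg/kg per day), for 21 days. Each group of 12 mice gave 2 pools of RNA from 6 mice, with 1 Affymetrix Mouse Genome 430 2.0 array per pool, so n is 2 pools per group. All groups share the strain, sex and tissue, and the mice within a pool cannot be told apart. The comparison asks how hippocampal transcript levels differ between these groups.

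Neurofilaments fill the axons of large neurons and set their calibre. The light chain (Nefl), the medium chain (Nefm), the heavy chain (Nefh) and alpha-internexin (Ina) assemble together into 1 filament. Microtubule-associated proteins bind the wall of microtubules and stabilise or space them, tau (Mapt) mainly in axons and MAP2 in dendrites. Because a pool holds RNA from all cells of the hippocampus, fewer cells of a type and less RNA per cell cannot be told apart in these values.

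The array values are intensities on a linear scale, normalized by the submitters with GCRMA. A probeset was tested where it reached 100, the submitters' minimum, in at least 2 of the 4 arrays. Of the 27 probesets 24 were tested, at least 1 for each of the 10 genes. The other 3, 1 for Map1b and 2 for Map4, lay between 6.42 and 34.8 in all 4 arrays and are not well above background. Groups were compared on the log2 scale with limma over all 16938 tested probesets, with Benjamini-Hochberg adjustment over all of them and a threshold of 0.05. Differences are given as fluoxetine minus control in log2 units, with limma's standard error.

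Over the series, the median intensity per array ran from 22.6 to 23.3, and the median difference over tested probesets was -0.04. All 18 hybridisation spike-in probesets were higher in both fluoxetine arrays, by a median of 0.36 and a range from 0.17 to 0.55. Of 13 annotated hippocampal neuron markers 12 were tested, and Tdo2 was not. The choroid plexus markers, led by Ttr, differed between pools of the same group, from 4487 to 93527 in summed intensity over the list in control pools and from 9881 to 131350 in fluoxetine pools. With 2 arrays a group, the smallest p of an exact permutation test is 0.333.

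All 4 neurofilament genes had higher intensities in both fluoxetine pools than in both control pools, at each of their 7 probesets. Across the array, 21.9% of the 16938 probesets tested showed this same upward ordering of the 4 pools. Nefm rose by 46.5%, from a mean of 4048 ± 74.1 to 5933 ± 137 (SD, n = 2 pools), and was the only one of the 10 genes that passed the test. Nefl, Nefh and Ina were higher without passing. None of the 24 tested probesets fell by the test, and 1 of 24 rose, beside 1.72% of all tested probesets that passed, 1.03% upward and 0.685% downward.

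The medium chain is the subunit whose long phosphorylated tail projects from the filament together with that of the heavy chain. Nefm was at 4101 and 3996 in control against 6029.8 and 5835 in fluoxetine pools. The groups did not overlap, and the pools of 1 group lay close to each other beside the distance between groups. The log2 difference was 0.55 ± 0.07 (1.47-fold, 95% confidence interval 1.30 to 1.65, limma adjusted p = 0.0445). Of all tested probesets, 3.88% had a larger absolute difference. Nefm is measured by a single probeset. Its call was lost when any 1 of the 4 pools was left out, with adjusted p from 0.142 to 0.201, while its difference stayed between 0.53 and 0.57. It was also lost with the lower intensity minimum of 50 (adjusted p = 0.0694), with no minimum (adjusted p = 0.147) and with pool number as a replicate block (adjusted p = 0.114).

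The heavy chain gene Nefh, also with 1 probeset, was at 929.8 and 922 in control against 1235 and 1090.1 in fluoxetine pools. Both fluoxetine pools were above both control pools, and they lay further from each other than the control pools did. The log2 difference of 0.33 ± 0.09 (1.25-fold, 95% confidence interval 1.07 to 1.47) did not pass (limma adjusted p = 0.131).

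The light chain gene Nefl, whose product is the core subunit needed for filament assembly, has 2 probesets. At 1426255_at it was at 6888 and 6164 in control against 8339 and 7924 in fluoxetine pools, a log2 difference of 0.32 ± 0.09, which did not pass (limma adjusted p = 0.133). At 1454672_at it was at 6608 and 6133 in control against 7050.0 and 6753 in fluoxetine pools, a difference of 0.12 ± 0.08 (limma adjusted p = 0.418). The fluoxetine pools were the higher ones at both probesets, and at 1454672_at the gap between the groups was small beside the spread within them. The ratio of the second probeset to the first differed between groups by -0.20 ± 0.09 in log2 units, which did not pass (limma adjusted p = 0.592).

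Alpha-internexin, the subunit that appears early in neuronal differentiation, had 3 probesets for Ina. The brightest, 1448991_a_at, was at 2572 and 2677 in control against 2914 and 2997 in fluoxetine pools, a log2 difference of 0.17 ± 0.07 (limma adjusted p = 0.231). At 1418178_at Ina was at 746 and 740.4 in control against 781 and 836 in fluoxetine pools, a difference of 0.12 ± 0.07 (limma adjusted p = 0.38). At 1448992_at it was at 728 and 728 in control against 799.7 and 737 in fluoxetine pools, a difference of 0.08 ± 0.07 (limma adjusted p = 0.58). All 3 had the fluoxetine pools above the control pools, and none passed.

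**Figure D1:**
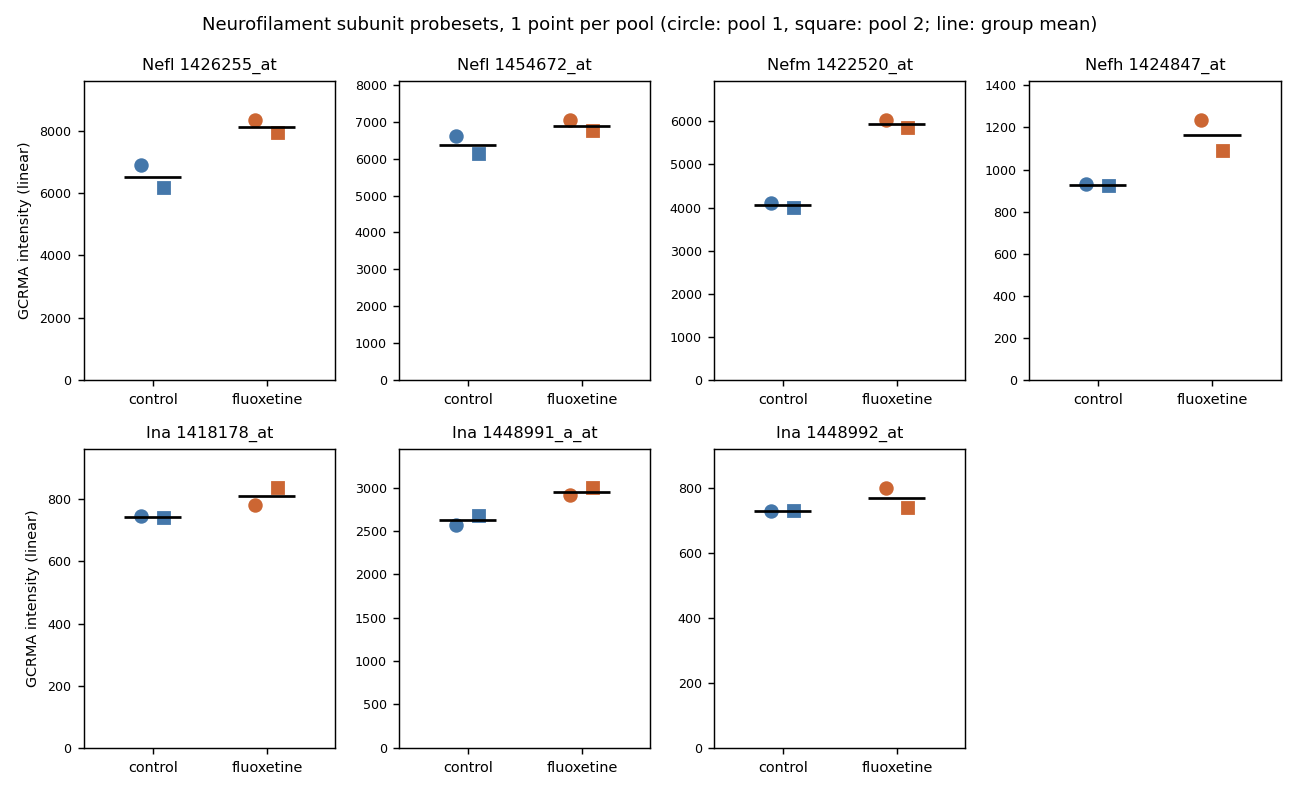
Intensity (GCRMA, linear scale from 0) of each of the 7 neurofilament probesets in the 4 pools, with circles for pool 1, squares for pool 2 and lines for group means. In every panel both fluoxetine points lie above both control points, with the widest separation for Nefm, at 3996 and 4101 in control and 5835 and 6029.8 in fluoxetine pools.

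The 7 of 7 neurofilament probesets whose groups did not overlap in the higher direction stand beside 21.9% of all tested probesets. Probesets of 1 gene share a transcript and are not independent of each other. At each gene's brightest probeset the 4 differences ran from 0.17 to 0.55, with a median of 0.32, while the median over the 9030 tested genes was -0.03. The 18 spike-in probesets also differed by 0.17 to 0.55, with a median of 0.36, and their shift in relation to the filament genes was not tested. Whether the difference of Nefm exceeds that of the other subunits was not tested. Nefl and Nefm are neighbours in the RefSeq annotation (GRCm38.p6), with 1 entry between them, the pseudogene Gm19216. The noncoding gene A230070E04Rik overlaps Nefm in that annotation. Its tested probeset, 1457015_at, was at 409 and 446 in control against 356 and 409 in fluoxetine pools, a log2 difference of -0.16 ± 0.10 (limma adjusted p = 0.400), with groups that overlapped.

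Peripherin (Prph), a filament protein of peripheral neurons that can assemble with these subunits, reached at most 10.01 in intensity on any array. Glial filament genes were also higher: Gfap, the astrocyte filament, was at 461 and 385 in control against 3222 and 2606 in fluoxetine pools (limma adjusted p = 0.0172), and vimentin (Vim), of astrocytes and vascular cells, at 1698 and 1684 in control against 6897 and 4905 in fluoxetine pools (limma adjusted p = 0.0352). Both rose, by log2 2.78 and 1.78.

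Tau was lower in both fluoxetine pools than in both control pools at all 4 Mapt probesets, and none of the 4 passed. This downward ordering of the pools was seen at 34.2% of the 16938 probesets tested. Map2 gave nearly equal values in all 4 pools. Map1a, Map1b and Map4 each had probesets on both sides of 0, both tested Map6 probesets were below 0, and none of the 4 genes had a call. Of the 17 tested probesets of the 6 microtubule-associated genes, 0 passed by limma and 3, all of Mapt, had an unadjusted p under 0.05, beside 13.9% of all tested probesets that were lower at that level. The 3 neurofilament probesets at that level, of Nefl, Nefm and Nefh, stand beside 8.64% that were higher.

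Mapt encodes tau, which binds microtubules through repeats near its C terminus. At the brightest probeset, 1424719_a_at, Mapt was at 3703 and 3789 in control against 3352 and 3081 in fluoxetine pools, a log2 difference of -0.22 ± 0.08 (95% confidence interval -0.42 to -0.02, limma adjusted p = 0.189). At 1455028_at it was at 1383 and 1209.9 in control against 997 and 953 in fluoxetine pools, a difference of -0.41 ± 0.09 (interval -0.65 to -0.17, limma adjusted p = 0.103). This is the lowest adjusted p among the microtubule-associated genes, and its control pools differed from each other more than its fluoxetine pools did. At 1424718_at Mapt was at 1458 and 1563 in control against 1350.2 and 1311 in fluoxetine pools, a difference of -0.18 ± 0.07 (limma adjusted p = 0.234). At 1417885_at, the dimmest, it was at 254 and 283 in control against 230.3 and 205 in fluoxetine pools, a difference of -0.30 ± 0.10 (limma adjusted p = 0.177). In each case the 2 groups did not overlap. The 4 of 4 probesets with non-overlapping groups in the lower direction stand beside 34.2% of all tested probesets.

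No difference between a Mapt probeset and the brightest one passed the test, and the dimmer probesets were not tested against each other. Set against the brightest probeset in the same array, the change was -0.19 ± 0.11 for 1455028_at (limma adjusted p = 0.684), -0.08 ± 0.10 for 1417885_at (limma adjusted p = 0.854) and 0.04 ± 0.10 for 1424718_at (limma adjusted p = 0.939). The 95% confidence interval for 1455028_at was -0.46 to 0.08.

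Map2, whose product is used as a marker of dendrites, stayed within a narrow range. Its brightest probeset, 1434194_at, was at 10998 and 11088 in control against 10916 and 11021 in fluoxetine pools, a log2 difference of -0.01 ± 0.06 with a 95% confidence interval of -0.18 to 0.16 (limma adjusted p = 0.945). At 1421328_at Map2 was at 737 and 752 in control against 731 and 749 in fluoxetine pools (difference -0.01 ± 0.07, interval -0.18 to 0.16). At 1421327_at it was at 318 and 329 in control against 324 and 326 in fluoxetine pools (difference 0.01 ± 0.07, interval -0.16 to 0.18). The groups overlapped at these 3 probesets, and the sign of so small a difference turned at 1434194_at and 1421328_at when arrays were centred on their medians. At 1440699_at Map2 was at 1021 and 1040.0 in control against 1063 and 1053 in fluoxetine pools (difference 0.04 ± 0.06, interval -0.13 to 0.21), with the fluoxetine pools slightly above the control pools. All 4 intervals lay between -0.18 and 0.21. Ratios of the 3 dimmer probesets to the brightest changed by 0.00 to 0.05 in log2 units, and none passed (limma adjusted p from 0.915 to 0.998).

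**Figure D2:**
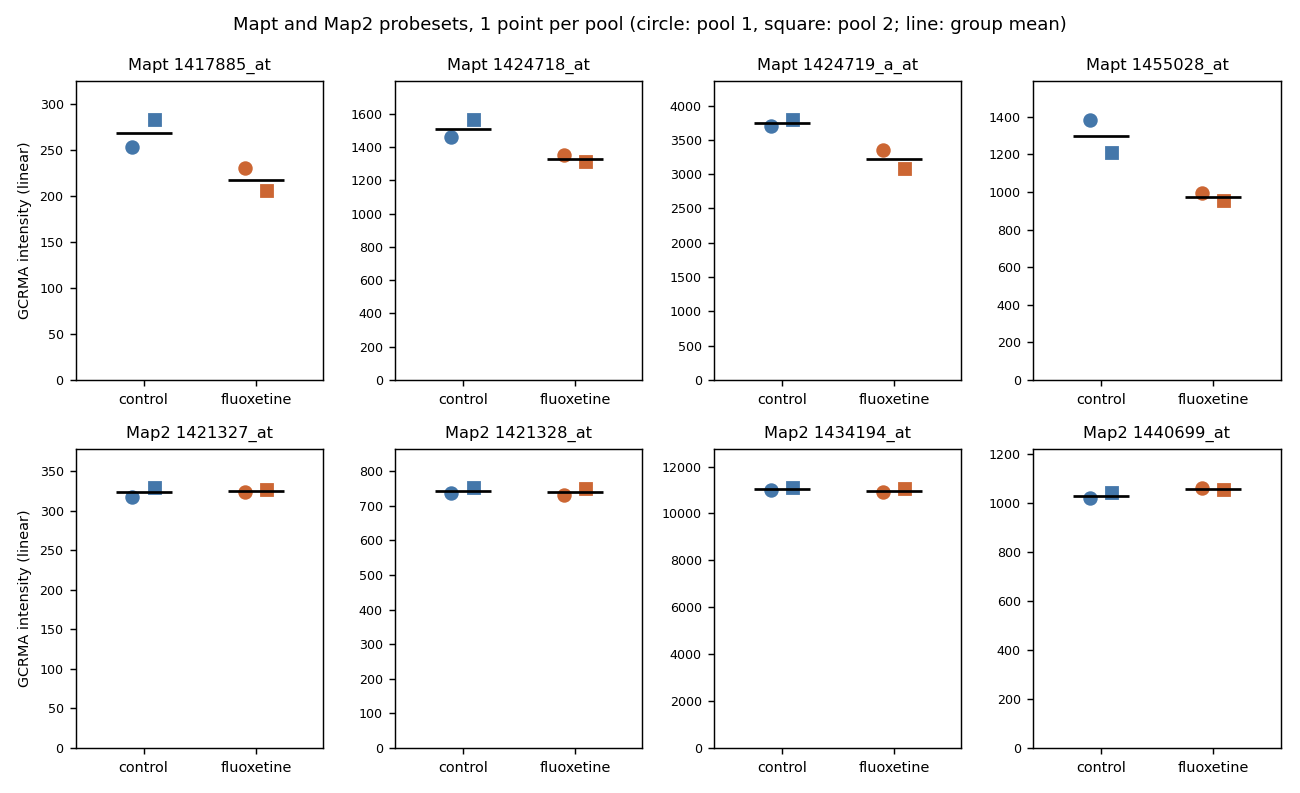
Intensity (GCRMA, linear scale from 0) of the 4 Mapt probesets (upper row) and the 4 Map2 probesets (lower row) in the 4 pools, with circles for pool 1, squares for pool 2 and lines for group means. Both fluoxetine points lie below both control points in every Mapt panel, while the Map2 points sit at nearly the same height, between 10916 and 11088 at the brightest probeset.

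Map1a and Map1b encode large precursors that are cut into a heavy and a light chain, the first mainly in mature neurons and the second in growing axons. Map1a at 1460566_at was at 2150.0 and 2214 in control against 1996 and 2030.3 in fluoxetine pools, lower in both fluoxetine pools, with a log2 difference of -0.12 ± 0.07, which did not pass (limma adjusted p = 0.364). At 1455779_at it was at 299 and 317 in control against 307 and 322 in fluoxetine pools, where the groups overlapped (difference 0.03 ± 0.07, limma adjusted p = 0.841). Map1b at 1450397_at was at 7683 and 7815 in control against 7706 and 7432 in fluoxetine pools (difference -0.03 ± 0.07, limma adjusted p = 0.793). At 1421851_at Map1b was at 1078 and 961 in control against 997 and 1159.5 in fluoxetine pools (difference 0.08 ± 0.11, limma adjusted p = 0.704). The groups overlapped at both Map1b probesets.

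Map4, the member of the tau and MAP2 family that is also expressed outside neurons, had probesets on both sides of 0, as did Map2, Map1a and Map1b with smaller differences. At its brightest probeset, 1437855_at, it was at 4040.5 and 4245 in control against 3524 and 3831 in fluoxetine pools, lower in both fluoxetine pools (difference -0.17 ± 0.08, limma adjusted p = 0.278). At 1416091_at it was at 1340.0 and 1161 in control against 1435 and 1317 in fluoxetine pools (difference 0.14 ± 0.10, limma adjusted p = 0.459). At 1416092_a_at it was at 1394 and 1196 in control against 1528 and 1209.9 in fluoxetine pools (difference 0.07 ± 0.14, limma adjusted p = 0.793). At the last 2 the groups overlapped. Relative to the brightest probeset, 1416091_at was higher in fluoxetine pools by 0.31 ± 0.14 in log2 units, which did not pass (95% confidence interval -0.02 to 0.65, limma adjusted p = 0.566). The ratio for 1416092_a_at changed by 0.25 ± 0.18 (limma adjusted p = 0.719). The sources used here do not give the stretch of transcript that each probeset reads.

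Map6 encodes STOP, which protects microtubules from cold and drugs. At 1422550_a_at it was at 724 and 779.8 in control against 691 and 579.6 in fluoxetine pools, lower in both fluoxetine pools, with the second fluoxetine pool apart from the first. The difference of -0.25 ± 0.11 did not pass (limma adjusted p = 0.27), and it ranged from -0.37 to -0.12 when pools were left out in turn. At the dim probeset 1457316_at Map6 was at 139 and 117 in control against 109 and 130.1 in fluoxetine pools, with groups that overlapped (difference -0.10 ± 0.13, limma adjusted p = 0.691).

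**Figure D3:**
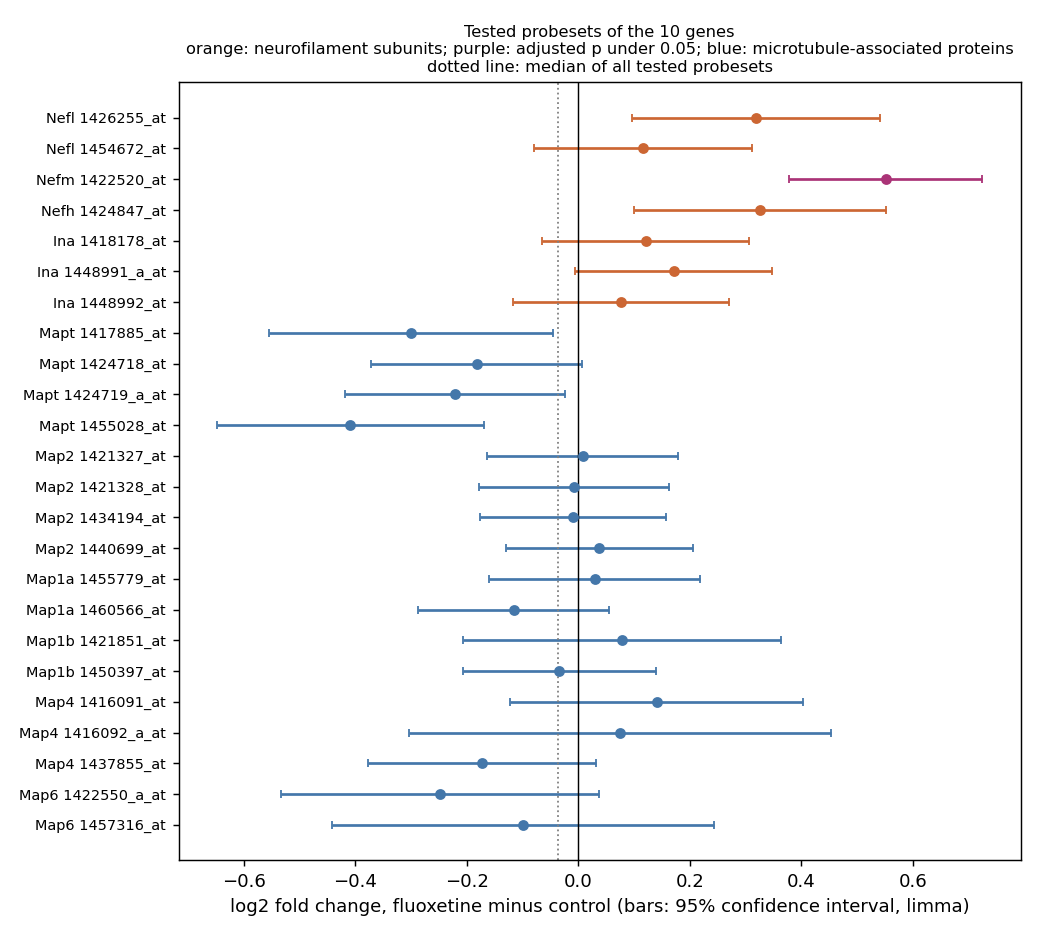
Log2 difference between fluoxetine and control (points) with limma's 95% confidence interval (bars) for the 24 tested probesets, by gene, with filament subunits in orange, microtubule-associated genes in blue and the 1 probeset past an adjusted p of 0.05 in purple. All 7 filament points lie right of 0 and all 4 Mapt points left of it, while the Map2 points lie between -0.01 and 0.04.

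Among all 14 within-gene ratios of the 8 members with several tested probesets, 0 passed by limma and 0 had an unadjusted p under 0.05, beside 0.0169% that passed and 9.22% at the unadjusted level over 5924 such ratios of 3748 genes. The single ratio that passed over all genes was that of Homer1, a synaptic scaffold gene, by log2 2.79.

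Counted together, 15 of the 24 tested probesets had non-overlapping groups, 8 higher and 7 lower, beside 56% of all tested probesets. At the brightest probesets the filament genes and the microtubule-associated genes lay on different sides of 0. The 4 filament genes were above it and the 6 others below, beside 43.5% of all tested genes that were above it. Map2 at -0.01 and Map1b at -0.03 were close to 0, and Map2 turned above 0 when arrays were centred. For the microtubule-associated genes the side depended on the probeset: 6 of their 17 tested probesets were above 0 and 11 below. Map4 was at -0.17 at its brightest probeset and at 0.14 and 0.07 at its other tested probesets. Relative to each gene's mean over the 4 arrays, the mean of the 4 filament genes was -0.15 and -0.19 in control against 0.20 and 0.14 in fluoxetine pools. The mean of the 6 microtubule-associated genes was 0.04 and 0.09 in control against -0.04 and -0.09 in fluoxetine pools. These means describe the 4 arrays and were given no test.

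The proteins that work with these members were counted from 7 lists of cytoskeletal genes, at each gene's brightest tested probeset. Of 143 listed genes 116 were tested. By limma 2 rose (Gfap and Vim) and 0 fell, beside 1.86% of all tested genes that passed, 1.31% upward and 0.554% downward. At an unadjusted p under 0.05, 13 were higher and 9 lower, beside 8.64% of all tested probesets that were higher and 13.9% that were lower. The median difference over the 116 tested genes was 0.00, and list medians ran from -0.03 to 0.11. The counts of each list below stand beside the same shares. Those at the unadjusted level are shares of probesets, while the lists count genes, so they are only a rough background.

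Tubulins, the building blocks of microtubules, had 10 tested genes with 0 calls by limma, 4 higher and 0 lower at an unadjusted p under 0.05, and a median of 0.07. Tubb2b, a beta-tubulin of developing neurons, was at 6577 and 6848 in control against 8942 and 9179.9 in fluoxetine pools (log2 difference 0.43 ± 0.07, limma adjusted p = 0.0636). The groups were well apart, without a call. Tubg1, a gamma-tubulin of microtubule nucleation sites, was at 587 and 584 in control against 566 and 434 in fluoxetine pools (difference -0.24 ± 0.14, limma adjusted p = 0.375).

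Of 27 other microtubule-associated and end-binding genes, 0 passed by limma, 3 were higher and 3 lower at an unadjusted p under 0.05, and the median was 0.01. Map7, a recruiter of kinesin-1, was at 1530.0 and 1438 in control against 1168 and 1211 in fluoxetine pools (difference -0.32 ± 0.07, limma adjusted p = 0.105). Mid1, a microtubule-bound ubiquitin ligase, was at 92.1 and 44.9 in control against 123 and 192 in fluoxetine pools (limma adjusted p = 0.174). Both control pools of Mid1 lay under 100, so the fluoxetine mean is given only as at least 1.53-fold higher, against 100.

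Among 7 stathmin and severing genes 0 passed by limma, 1 was higher and 0 lower at an unadjusted p under 0.05, and the median was -0.02. Stmn4, a neuronal stathmin that sequesters tubulin, was at 2390.5 and 2454 in control against 3092 and 2941 in fluoxetine pools (difference 0.32 ± 0.07, limma adjusted p = 0.099), above the controls in both fluoxetine pools. Katna1, the catalytic subunit of katanin, was at 172 and 158 in control against 165 and 109.7 in fluoxetine pools (difference -0.29 ± 0.21, limma adjusted p = 0.449).

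Tau kinases and phosphatases had 22 tested genes and 0 calls by limma, with 1 higher and 0 lower at an unadjusted p under 0.05 and a median of -0.02. The tyrosine kinase gene Fyn was at 1605 and 1493 in control against 1816 and 2056 in fluoxetine pools (difference 0.32 ± 0.09, limma adjusted p = 0.149). The casein kinase gene Csnk1d was at 1826 and 1636 in control against 1883 and 2077 in fluoxetine pools (difference 0.19 ± 0.09, limma adjusted p = 0.302), and only 2 of its 5 tested probesets had that sign.

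The 25 tested kinesin and dynein genes, the motors of axonal transport, gave 0 calls by limma and 0 at an unadjusted p under 0.05, with a median of -0.03 and a range from -0.14 to 0.28. Kif5c, a neuronal kinesin-1 heavy chain, was at 12884 and 13001 in control against 14270.3 and 14727 in fluoxetine pools (difference 0.16 ± 0.07, limma adjusted p = 0.235). Of the 3 tested Kif5c probesets, 2 had that sign. Nde1, a dynein regulator, was at 138 and 142 in control against 195 and 148 in fluoxetine pools (difference 0.28 ± 0.15, limma adjusted p = 0.332).

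Of 7 tested intermediate filament and linker genes 2 rose, Gfap and Vim as above, and 0 fell, with a median of 0.11. Their range was from -0.54 to 2.78, with 3 higher and 2 lower at an unadjusted p under 0.05. Of 18 spectrin, ankyrin and actin-linked genes 0 passed by limma, with 1 higher and 4 lower at an unadjusted p under 0.05 and a median of 0.03. Sptb, a beta-spectrin, was at 501 and 481 in control against 377 and 337 in fluoxetine pools (difference -0.46 ± 0.08, limma adjusted p = 0.0788). Epb41l3, a linker of membrane proteins to spectrin and actin, was at 1126 and 1172 in control against 922 and 958 in fluoxetine pools (difference -0.29 ± 0.07, limma adjusted p = 0.112). Both genes were lower in both fluoxetine pools.

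**Figure D4:**
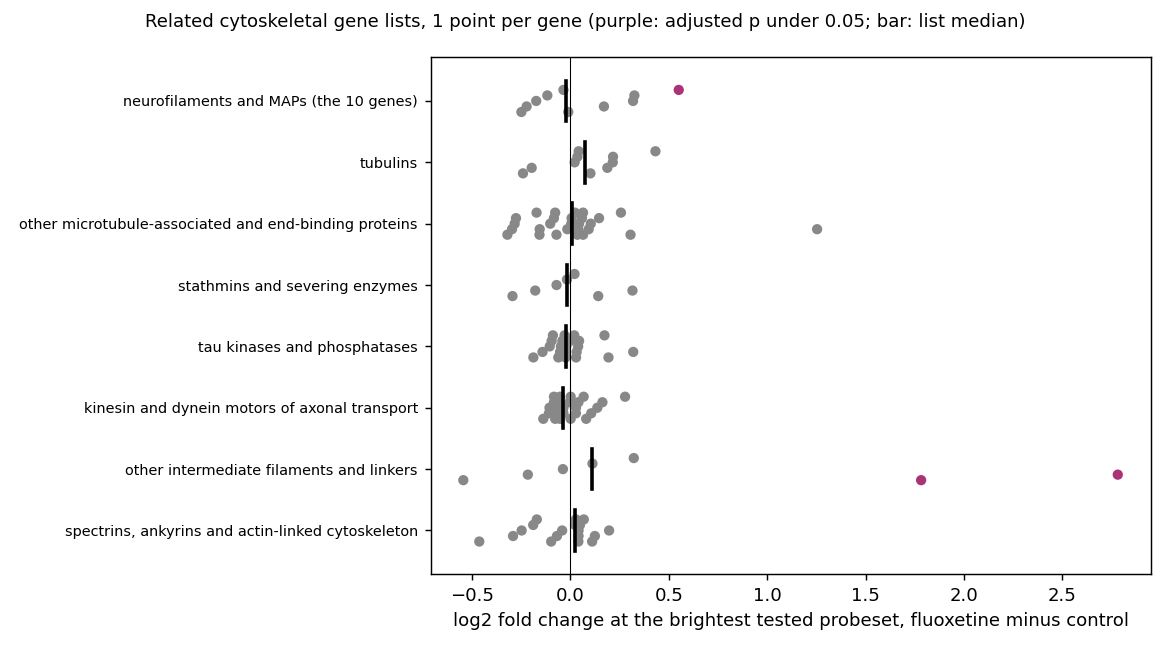
Log2 difference between fluoxetine and control at each gene's brightest tested probeset, 1 point per gene, for the 10 genes and for 7 lists of related cytoskeletal genes, with list medians as bars and genes past an adjusted p of 0.05 in purple. Most points lie within 0.5 of 0, and the purple points are Nefm, Gfap and Vim.

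Markers of whole cell types stood as follows beside these results. Over all tested genes 1.31% rose and 0.554% fell by limma. At an unadjusted p under 0.05, 8.64% of all tested probesets were higher and 13.9% lower, a rough background because the marker counts are of genes. General neuron markers had 10 tested genes, 3 above 0 and 7 below, with 0 calls by limma and 1 at an unadjusted p under 0.05, and a median of -0.06. Their summed intensity was 110640 to 113766 in control and 110096 to 112021 in fluoxetine pools. Uchl1, a neuronal ubiquitin hydrolase, was the member with the largest difference, at 7205 and 7164 in control against 9646 and 9492 in fluoxetine pools (0.41 ± 0.06, limma adjusted p = 0.0636). The vesicle fusion gene Snap25 was at 48443 and 49686 in control against 48085 and 48529.5 in fluoxetine pools.

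Markers of hippocampal neurons had 12 tested genes, 6 above 0 and 6 below, with a median of 0.04 and a range from -1.79 to 1.11. By limma 1 fell and 0 rose, and 3 were higher and 3 lower at an unadjusted p under 0.05. The gene that fell was Dsp, which encodes the junction protein desmoplakin and marks dentate granule cells, at 880.4 and 602 in control against 246 and 179 in fluoxetine pools (-1.79 ± 0.24, limma adjusted p = 0.0495). The granule cell marker C1ql2 was at 153 and 112 in control against 303 and 263 in fluoxetine pools (1.11 ± 0.17, limma adjusted p = 0.0636), higher in both fluoxetine pools without a call. Calb1, the calcium-binding protein calbindin, was at 5157 and 4876 in control against 3488 and 3843 in fluoxetine pools at its brightest probeset (-0.45 ± 0.08, limma adjusted p = 0.0771), lower in both fluoxetine pools, and 1 of its 3 tested probesets passed, also lower. The summed intensity of the list was 28671 to 35367 in control and 30183 to 30551 in fluoxetine pools, so that the control range held the fluoxetine range.

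Parvalbumin and other interneuron markers had 10 tested genes with a median of 0.00, of which Npy, the neuropeptide Y precursor, rose and 0 fell. At an unadjusted p under 0.05, 2 of these were higher and 1 lower. Pvalb, the marker of fast-spiking interneurons, was at 780.4 and 766 in control against 683 and 710.5 in fluoxetine pools (difference -0.15 ± 0.07, limma adjusted p = 0.27). Oligodendrocyte markers, of cells that also express Mapt, had 10 tested genes, 0 calls by limma and 0 at an unadjusted p under 0.05, with a median of -0.01 and summed intensities of 149873 to 151885 in control and 144438 to 144742 in fluoxetine pools. All 10 tested microglia markers were above 0 with 5 calls and a median of 0.70, and their summed intensity went from 9090 to 9477 in control pools to 14392 to 14880 in fluoxetine pools. Among them 8 were higher and 0 lower at an unadjusted p under 0.05. Of 10 astrocyte markers 2 rose and 0 fell, with a median of 0.16 and summed intensities of 111665 to 115204 in control and 128118 to 136222 in fluoxetine pools. Their differences ran from -0.44 to 2.78, the latter being Gfap, with 3 higher and 1 lower at an unadjusted p under 0.05. Of 8 endothelial and mural markers 2 rose and 0 fell, with a median of 0.32 and summed intensities of 6065 to 6080 in control and 7828 to 8089 in fluoxetine pools. In this list 6 were higher and 0 lower at an unadjusted p under 0.05. The cortex and thalamus markers had 8 tested genes, 0 calls by limma, 2 higher and 2 lower at an unadjusted p under 0.05, and a median of -0.18. The part of these cell types and of the spike-in shift in the values of Nefm and Mapt was not tested.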

How the data were processed

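The linear-scale intensities were normalized with GCRMA by the authors in ArrayAssist, per the labels' design text, and deposited without a filter. Versions were not given in the sources used here. GCRMA estimates background from probe sequence, which draws dim probesets to a common floor, and scales arrays to each other. Groups and pool numbers came from sample titles.

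Values were taken to log2 with no pseudocount. The 64 Affymetrix controls were left out, and 16938 probesets were tested (100 in at least 2 of 4 arrays) with limma 3.58.1 in R 4.3.3 (lmFit, eBayes, two-sided, no covariate). Within-gene ratios are the log2 value of a probeset minus that of the gene's brightest tested probeset, tested the same way over 5924 ratios. Confidence intervals are unadjusted. Symbols came from the platform annotation: 34958 probesets had 1, 932 several and 9211 none, and all 10 members were found in the RefSeq gene table with no symbol changed.

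The members and lists were chosen with earlier results of these data known. Named were all members and, per related list, the calls and the 2 largest differences. Prph, Homer1, A230070E04Rik and the named cell type markers were chosen after their values were seen. In data simulated for this comparison (16938 probesets), limma recovered 0% of changes of log2 0.3, 1.6% of log2 0.5 and 68.4% of log2 1, with 3.26% of calls false. The simulated noise was independent between probesets and followed limma's own fitted spread, with no shift shared by the arrays of a group. The 3.26% therefore need not hold for the calls made here. Each size was given to 250 probesets over 5 runs, whereas 22.5% of all tested probesets had an unadjusted p under 0.05 in the real data. The adjusted threshold depends on how many probesets differ, so the recovered shares need not hold here either. For the 5924 within-gene ratios it recovered 0% of log2 0.5 and 48.8% of log2 1. Alternatives were other intensity minimums, median centring, quantile normalization, a pseudocount of 32, a floor of 100, dropping cross-matching probesets (_x_at, _s_at) or each pool, pool number as a block, and eBayes with trend and robust settings.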

Additional observations from a re-analysis of the deposited data

How the results depend on the processing

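Over the alternatives, all 7 neurofilament probesets stayed above 0 and all 4 Mapt probesets below 0. The Nefm call held under 7 of 14 alternatives, with its difference between 0.53 and 0.58 and adjusted p from 0.0139 to 0.201. With no intensity minimum, calls by limma numbered 0 over all probesets (5396 at an unadjusted p under 0.05), 0 of the members and 0 of the related genes. With a minimum of 50 they were 16, 0 and 1, and with pool number as a replicate block 9, 0 and 1 (Nefm adjusted p = 0.114). The sample titles give only a pool number, and whether same-numbered pools were handled together is not known from them. Deviations of pool 1 from its group mean correlated at 0.139 between the groups over 16938 probesets. Those of pool 2 are the same with the sign turned, so this value does not decide whether the pools were linked. With eBayes trend and robust settings the counts were 532 over all probesets and 4 related genes. Without each pool in turn, all 3 counts were 0 to 0 (2657 to 3515 at an unadjusted p under 0.05 over all probesets). Calls among members' within-gene ratios were 0 throughout, with 0 to 2 at an unadjusted p under 0.05.

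The median of the 10 genes was -0.022, -0.027 after quantile normalization, 0.0060 after median centring, 0.018 with probesets averaged, and -0.031 to -0.012 without each pool. Sign changes came only at probesets without a call. Map2 1421328_at went to 0.026 (quantile) and 0.020 (centring), and Map2 1434194_at to 0.018 (centring). Without each pool in turn, Map2 1421327_at ran from -0.016 to 0.032, Map2 1421328_at from -0.026 to 0.0095, Map1a 1455779_at from -0.013 to 0.072, Map1b 1421851_at from -0.030 to 0.19, Map4 1416092_a_at from -0.094 to 0.24 and Map6 1457316_at from -0.23 to 0.029. The cause of these shifts was not tested. With 2 arrays a group, differences of log2 0.5 or less were seldom callable in the simulated data, so an absent call does not show an unchanged transcript. The next size tried was log2 1, of which 68.4% were recovered, and the Nefm difference of 0.55 lies between these sizes. Fewer probesets were changed in the simulation than had an unadjusted p under 0.05 here, so these shares need not hold for this comparison.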
